A study of Mus musculus with 15 samples.

Results

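The tubulin isotypes are the genes that encode the building blocks of microtubules, and 9 of them were listed by symbol: the alpha-tubulins Tuba1a, Tuba1b and Tuba4a, the beta-tubulins Tubb2a, Tubb2b, Tubb4a, Tubb5 and Tubb6, and the gamma-tubulin Tubg1. Of the 9, 8 had a probe set that the platform's annotation gives to a single gene symbol, out of 19500 genes so annotated, and each of the 8 had 1 probe set. Tuba1b had none in that annotation and is not analysed here. The RNA came from cerebella of mice with the Tg(Pcp2-L10a-Egfp) transgene, in which the Pcp2 promoter, active in Purkinje cells, drives the ribosomal protein L10a fused to a green fluorescent tag. Tagged ribosomes were captured from pooled cerebella with antibodies against the tag (translating ribosome affinity purification, TRAP), and the RNA bound to them was hybridised to 15 Affymetrix arrays, 3 for every age, namely P0, P7, P15, P21 and P56 (postnatal days). All 5 groups carry the transgene, the labels name no treatment of the mice, and a library of the unpurified tissue was not used here, so no value is an enrichment over the whole cerebellum. Values are log2 signals per probe set.

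Alpha-tubulin and beta-tubulin join into heterodimers, and these add to the ends of microtubules, the tracks and struts of axons and dendrites. Gamma-tubulin sits in ring complexes from which new microtubules start. Tuba1a, Tubb2b and Tubb5 are known as isotypes of newborn and growing neurons, and variants of each cause malformations of the brain in humans, whereas Tubb4a is known from adult neurons and from the myelin-forming oligodendrocytes. Purkinje cells send the output of the cerebellar cortex and build most of their dendritic tree in the weeks after birth.

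The upstream sequences of 3 isotypes that fell (Tuba1a, Tubb2a and Tubb5) and of the 2 alpha and beta isotypes that were higher at P56 than at P0 (Tuba4a and Tubb4a) are shown here, since they are the stretches next to the start sites of genes that moved in opposite directions. Each holds the 250 bases before the annotated start, 5′ to 3′ on the strand of the gene, from RefSeq on GRCm38.p6, where 5 of the 8 measured isotypes had an entry. The windows lie on the minus strand at chr15:98953502-98953751 (Tuba1a), chr13:34078009-34078258 (Tubb2a), chr17:35838302-35838551 (Tubb5), chr1:75219295-75219544 (Tuba4a) and chr17:57087601-57087850 (Tubb4a). Capitals mark matches, on either strand, to the TATA motif TATAAA, the CCAAT box and the GC box GGGCGG.
Tuba1a: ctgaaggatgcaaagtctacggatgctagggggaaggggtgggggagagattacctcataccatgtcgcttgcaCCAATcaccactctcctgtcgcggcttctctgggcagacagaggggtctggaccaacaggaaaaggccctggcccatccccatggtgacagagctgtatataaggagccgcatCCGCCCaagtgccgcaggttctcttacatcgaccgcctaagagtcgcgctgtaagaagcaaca
Tubb2a: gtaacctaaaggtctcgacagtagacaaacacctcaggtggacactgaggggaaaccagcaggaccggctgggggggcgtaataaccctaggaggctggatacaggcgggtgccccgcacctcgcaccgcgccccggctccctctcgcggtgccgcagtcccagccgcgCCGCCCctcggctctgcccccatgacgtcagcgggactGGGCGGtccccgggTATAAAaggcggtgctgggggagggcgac
Tubb5: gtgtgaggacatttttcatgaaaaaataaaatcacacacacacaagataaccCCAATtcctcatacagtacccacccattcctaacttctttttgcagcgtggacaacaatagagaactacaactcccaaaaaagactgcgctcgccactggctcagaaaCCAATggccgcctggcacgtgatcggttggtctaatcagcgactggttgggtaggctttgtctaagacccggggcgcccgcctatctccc
Tuba4a: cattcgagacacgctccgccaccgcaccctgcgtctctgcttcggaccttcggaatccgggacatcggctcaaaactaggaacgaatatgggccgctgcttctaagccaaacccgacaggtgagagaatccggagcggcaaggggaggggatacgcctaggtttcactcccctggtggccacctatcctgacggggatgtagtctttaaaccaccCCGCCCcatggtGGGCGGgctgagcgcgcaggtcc
Tubb4a: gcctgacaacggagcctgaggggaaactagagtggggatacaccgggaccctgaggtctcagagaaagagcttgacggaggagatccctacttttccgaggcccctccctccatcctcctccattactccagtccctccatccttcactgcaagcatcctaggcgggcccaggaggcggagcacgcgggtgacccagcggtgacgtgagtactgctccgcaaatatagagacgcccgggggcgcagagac
TATAAA was in the Tubb2a window, with its first base 29 bases before the start, and 12.4% of all 32851 windows of this length in the table held it. CCAAT was in the Tuba1a window, 176 bases before the start, and at 2 places in the Tubb5 window, 198 and 90 bases before it, against 33.8% of all windows. GGGCGG was found at 2 places each in the Tubb2a and Tuba4a windows and at 1 in the Tuba1a window, against 32.7% of all windows. The Tubb4a window held none of the 3 motifs. None of these motifs was in all 3 windows of Tuba1a, Tubb2a and Tubb5. The windows of Tubb2b and Tubb6, which also fell, are not shown.

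The P0 arrays, and to a lesser degree those of P56, stood apart from the rest. Arrays of P7 and P0 correlated at 0.917 on average and those of P56 and P21 at 0.967, against 0.993 for P15 and P7 and 0.994 for P21 and P15, and arrays of the same age at 0.995 to 0.999. Purkinje cell markers (13 of 15 measured) had a list mean of 9.90 to 9.93 over the P0 arrays and of 12.89 to 13.03 over the arrays of the later ages, and Pcp2 itself averaged 13.16 ± 0.013 at P7 and 8.53 ± 0.072 at P0 (SD, n = 3). Other cell types left signal too: endothelial and mural markers (10 of 10 measured) ranged from 7.21 to 7.25 at P7 and from 9.25 to 9.30 at P0. Cerebellar interneuron markers (8 of 8 measured) ranged from 8.38 to 8.55 at P7 and from 10.58 to 10.61 at P0. The part of these differences in any change from P0 was not tested. The comparison of P56 with P7 is therefore given for each isotype beside that of P56 with P0. With array medians set to 0, the median change of all probe sets from P0 to P56 was 0.41, against 0.08 as deposited, and higher calls made up 70.2% of the calls, against 53.2%. The medians of the 3 P56 arrays were 7.59 to 7.60, below those of the 12 other arrays, which were 7.77 to 7.93. Lower quartiles ran from 5.86 to 6.01, and all 8 isotypes lay above the lower quartile on all 15 arrays. The highest signals of the P0 arrays were 13.945, 14.003 and 13.885, and Tuba1a gave 13.893, 13.827 and 13.836 there. Tubb2b averaged 13.63 and Tubb5 13.45 at P0. Whether signals so near the top of the arrays understate changes from P0 was not tested.

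Tubulin isotypes changed in opposite directions between birth and adulthood. At P56, 5 of the 8 were lower than at P0 (Tubb2b, Tuba1a, Tubb5, Tubb2a and Tubb6) and 3 were higher (Tuba4a, Tubb4a and Tubg1), by limma's moderated test, in which a probe set was called at a p below 0.05 after Benjamini-Hochberg adjustment over all 22092 probe sets. Of all probe sets, 75.4% were called in this comparison, 35.3% lower and 40.1% higher, so a call alone does not set the isotypes apart. Their median log2 change was −0.97, against 0.08 for all probe sets. The arrays of P56 and P0 did not overlap for any of the 8, which was so for 74.7% of all probe sets. From P7 to P56, 7 isotypes were lower and Tubb4a was higher, where 59.6% of all probe sets were called, 34.2% lower and 25.4% higher, with a median of −0.67 against 0.0018. The arrays of P56 and P7 did not overlap for 8 of 8 isotypes and for 64.1% of all probe sets. With array medians set to 0, 5 were lower and 1 higher from P7 to P56, and 71.9% of all calls were higher, against 42.5% as deposited. Each of the 8 also differed between ages in the F-test over all steps, as 81.6% of probe sets did, with adjusted p from 2.85e-16 (Tubb2b) to 1.26e-06 (Tubb4a). In RNA captured from pooled tissue, fewer cells of a type, less RNA per cell and a different yield of the capture cannot be told apart.

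**Figure D1:**
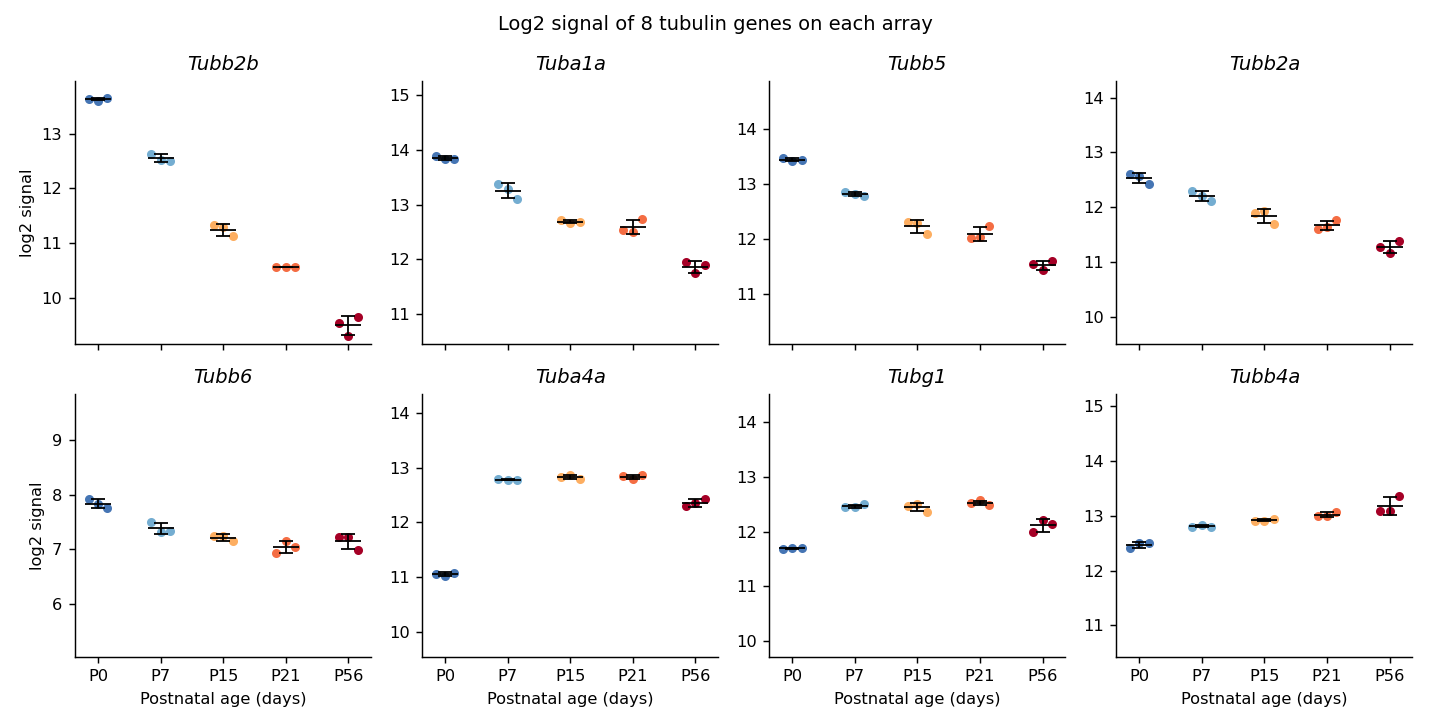
Log2 signal of each of 8 tubulin genes (y axis, each panel 4.8 log2 units high) on each of 15 arrays, 3 per postnatal age (x axis, not to scale in days); points are arrays, and the dash and bars give the mean and SD. Tubb2b drops at every age to 9.49 at P56, Tuba4a averages 12.78 at P7 against 11.05 at P0, and Tubb4a climbs slowly to 13.18 at P56.

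Tubb2b, a beta-tubulin of migrating and axon-forming neurons, fell most of the 8. Its log2 signals were 13.63, 13.60 and 13.65 on the P0 arrays, 12.64, 12.51 and 12.50 at P7, 11.33, 11.29 and 11.12 at P15, 10.57, 10.56 and 10.57 at P21, and 9.54, 9.30 and 9.64 at P56. No array of an age overlapped with an array of any other age, and each later age was lower than the one before. The change of P56 against P0 was −4.13 (SE 0.083, adjusted p 4.22e-17), which is 17.5-fold lower. Of all probe sets, 0.367% had a lower change than Tubb2b in this comparison. The steps were −1.08 at P7 against P0, −1.30 at P15 against P7, −0.68 at P21 against P15 and −1.07 at P56 against P21, each called, with adjusted p of 2.86e-05 or lower. Being called lower at all 4 steps was seen in 1 of the 8 isotypes and in 0.303% of all probe sets. Of the whole fall, 26.0% had taken place by P7, and from P7 to P56 the gene was 8.32-fold lower (log2 change −3.06, SE 0.083).

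Tuba1a, the main alpha-tubulin of young neurons, was at its own highest level at P0. It gave 13.89, 13.83 and 13.84 at P0, 13.39, 13.28 and 13.10 at P7, 12.72, 12.67 and 12.68 at P15, 12.54, 12.49 and 12.73 at P21, and 11.95, 11.75 and 11.91 at P56. The P15 and P21 arrays overlapped, and the P0, P7 and P56 arrays each stood clear of their neighbours. It was 3.96-fold lower at P56 than at P0 (log2 change −1.99, SE 0.083, adjusted p 3.61e-13). At P56 Tuba1a was also 2.62-fold lower than at P7 (−1.39, adjusted p 2.33e-10). It fell by 0.59 in the first week, by 0.57 between P7 and P15 and by 0.72 between P21 and P56, while the step at P21 against P15 was −0.10 (95% interval −0.27 to 0.07, adjusted p 0.495).

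Tubb5, a widely expressed beta-tubulin that dividing progenitors also use, followed nearly the same course. Its signals were 13.48, 13.42 and 13.45 at P0, 12.86, 12.83 and 12.78 at P7, 12.30, 12.29 and 12.10 at P15, 12.01, 12.03 and 12.23 at P21, and 11.53, 11.43 and 11.59 at P56. Here too, P15 and P21 overlapped and the other neighbouring ages did not. The P56 mean was 3.81-fold lower than that of P0 (log2 change −1.93, SE 0.076, adjusted p 1.75e-13). It was 2.47-fold lower than that of P7 (−1.30, adjusted p 1.87e-10). The steps were −0.62, −0.59, −0.14 (not called, adjusted p 0.242) and −0.57. Over the 15 arrays the Pearson correlation of Tuba1a and Tubb5 was 0.993, as a description of arrays that share 5 ages.

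Tubb2a, the close paralog of Tubb2b, fell less. Its means were 12.53 ± 0.095 at P0, 12.20 ± 0.090 at P7, 11.83 ± 0.13 at P15, 11.66 ± 0.085 at P21 and 11.27 ± 0.11 at P56 (SD, n = 3 each). Its fall to P56 was 2.39-fold against P0 (log2 change −1.26, SE 0.085, adjusted p 2.94e-10). Against P7 the fall was 1.9-fold (−0.92, adjusted p 5.63e-08). The P15 and P21 arrays overlapped, and that step was not called (−0.17, adjusted p 0.195). The step at P56 against P21 was called (−0.39, adjusted p 8.20e-04), and with array medians set to 0 it was not (−0.15). RefSeq places both genes on chromosome 13, with no protein-coding gene starting between them, and the difference between their falls is given among the pairs of isotypes.

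Tubb6, a beta-tubulin found widely outside neurons, lay under the array's median on 14 of 15 arrays. It gave 7.92, 7.84 and 7.75 at P0, 7.51, 7.32 and 7.33 at P7, 7.25, 7.25 and 7.14 at P15, 6.93, 7.15 and 7.05 at P21, and 7.22, 7.23 and 6.99 at P56. The P0 arrays were above all others, and P56 overlapped with P21. At P56 it was 1.61-fold lower than at P0 (log2 change −0.69, SE 0.084, adjusted p 8.39e-07), and 65.4% of that fall had occurred by P7. The later steps were not called. The change of P56 against P7 was −0.24 (adjusted p 0.0212), a call that ended without P7 replicate 1 (−0.18) or without P56 replicate 3 (−0.16), with quantile normalization (−0.078, adjusted p 0.449) and with array weights (−0.22), and the sign turned with array medians set to 0 (0.026).

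Of the 3 isotypes that were higher at P56 than at P0, Tuba4a had the largest change. Tuba4a is an alpha-tubulin of mature neurons and muscle whose human gene has been tied to motor neuron disease. It gave 11.06, 11.01 and 11.08 at P0, 12.79, 12.77 and 12.77 at P7, 12.82, 12.86 and 12.79 at P15, 12.85, 12.79 and 12.86 at P21, and 12.30, 12.34 and 12.43 at P56. The P0 arrays were lowest, the P15 arrays overlapped with those of P7 and of P21, and the P56 arrays lay between. At P56 it was 2.47-fold higher than at P0 (log2 change 1.30, SE 0.059, adjusted p 1.26e-12) and at P7 3.31-fold higher than at P0 (1.72, adjusted p 6.17e-14). The P15 step was 0.05 (95% interval −0.08 to 0.17) and the P21 step 0.01 (−0.12 to 0.13), and P56 was 1.39-fold lower than P21 (−0.47, adjusted p 2.71e-06). Against P7, P56 was 1.34-fold lower (−0.42, adjusted p 1.02e-05). With array medians set to 0, Tuba4a changed less at P56, by −0.24 against P21 and by −0.16 against P7, and both stayed called. Beside the higher Purkinje cell marker mean at P7, the granule cell markers (10 of 10 measured) averaged 10.54 to 10.66 at P7 and 8.81 to 8.86 at P0, and the oligodendrocyte markers (10 of 11 measured) 9.58 to 9.80 at P7 and 7.43 to 7.62 at P0. At P56 the oligodendrocyte markers were at 9.36 to 9.48, against 10.53 to 10.81 at P21, the granule cell markers averaged 10.91, against 11.08, and the Purkinje cell markers were at 13.01 to 13.03, against 12.89 to 12.96. The part of these lists in the changes of Tuba4a, and in those of Tubg1, was not tested.

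Tubb4a, the beta-tubulin known from adult neurons and oligodendrocytes, was the isotype called higher at P56 against both P0 and P7. It gave 12.40, 12.51 and 12.50 at P0, 12.80, 12.83 and 12.80 at P7, 12.91, 12.90 and 12.94 at P15, 12.99, 12.99 and 13.08 at P21, and 13.09, 13.09 and 13.37 at P56. The arrays of neighbouring ages did not overlap at any step, but the later steps were small. Of all probe sets, 72.1%, 45.0%, 32.7% and 54.7% did not overlap at the single steps, from the first to the last. At P56 it was 1.64-fold higher than at P0 (log2 change 0.71, SE 0.074, adjusted p 1.07e-07) and 1.30-fold higher than at P7 (0.37, SE 0.074, adjusted p 3.27e-04). The first step was called (0.34, adjusted p 6.16e-04), which quantile normalization ended (0.16). The steps of 0.11 at P15 and 0.10 at P21 were not called. Nor was the step of 0.16 at P56 against P21 (adjusted p 0.0754), where P56 replicate 3 lay above the others and where leaving out P56 replicate 1 or 2 gave a call (0.21 either way), as did medians set to 0 (0.39), the trended and robust prior (0.16) and the removal of the dimmest 50% of probe sets (0.16).

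Oligodendrocyte markers (10 of 11 measured) had a list mean between 7.43 and 7.62 on the P0 arrays, between 9.58 and 9.80 on those of P7, between 10.33 and 10.39 on those of P15, between 10.53 and 10.81 on those of P21 and between 9.36 and 9.48 on those of P56. The means of this list and of Tubb4a both rose up to P21, and the Tubb4a steps at P15 and P21 were not called. At P56 the list was lower than at P21, and no P56 array of Tubb4a was below its P21 arrays. The mean of 2 of the 10 markers was under the arrays' lower quartile at P0, and that of 0 was at the later ages. The granule cell list mean also rose, from 8.83 at P0 to 11.07 at P15, and was 11.08 at P21. The part of oligodendrocyte or granule cell RNA in the Tubb4a signal was not tested.

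Tubg1, the main gamma-tubulin of nucleation, changed least among the 3 that were higher. Its means were 11.70 ± 0.010 at P0, 12.47 ± 0.027 at P7, 12.45 ± 0.075 at P15, 12.53 ± 0.041 at P21 and 12.12 ± 0.11 at P56. The P7, P15 and P21 arrays overlapped with each other, and P56 lay between these and P0. At P56 it was 1.33-fold higher than at P0 (log2 change 0.42, SE 0.067, adjusted p 2.45e-05), at P7 1.70-fold higher than at P0 (0.77), and at P56 1.33-fold lower than at P21 (−0.41, adjusted p 4.88e-05). Its fall of 0.35 from P7 to P56 (adjusted p 2.23e-04) was no longer called with array medians set to 0 (−0.089). In that setting its change at P56 against P21 was −0.18, which stayed called. A call higher at P7 against P0 together with a call lower at P56 against P21 was found in 2 of the 8 isotypes, Tuba4a and Tubg1, and in 13.8% of all probe sets.

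**Figure D2:**
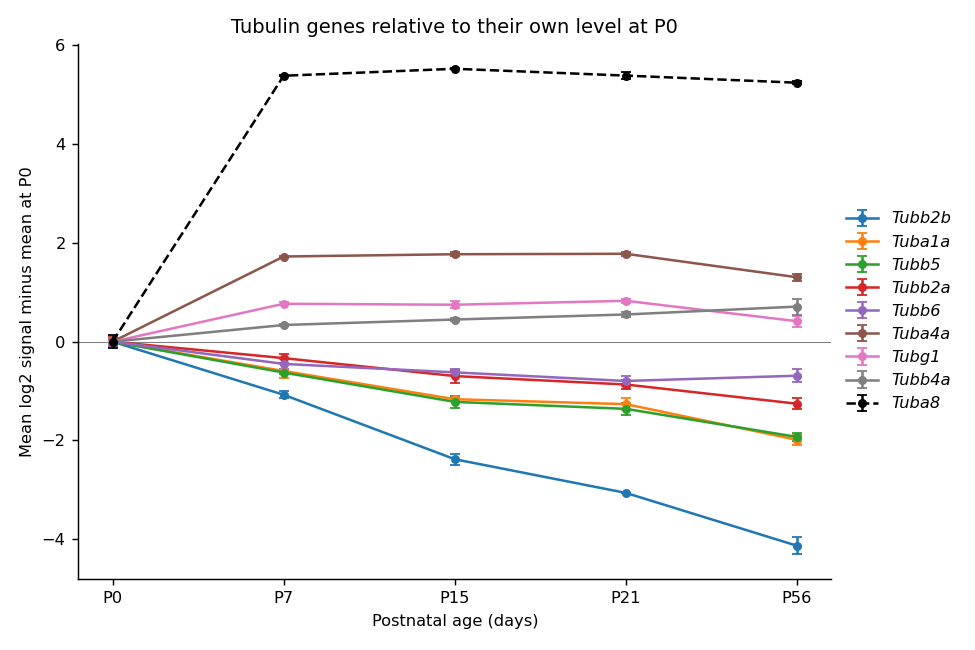
Mean log2 signal of each tubulin gene minus its own mean at P0 (y axis) at each postnatal age (x axis, not to scale in days), for the 8 isotypes and for Tuba8 (dashed); bars are the SD of the 3 arrays of that age. By P56, Tubb2b is at −4.13, Tuba1a at −1.99 and Tubb5 at −1.93, whereas Tuba4a is at 1.30 and Tuba8 at 5.24.

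By step, all 8 isotypes were called at P7 against P0, 5 lower and 3 higher, where 62.1% of probe sets were called, 28.5% lower and 33.6% higher. The arrays of 8 of 8 isotypes and of 72.1% of probe sets did not overlap. With quantile normalization 2 isotypes were called higher in this step, and Tubb4a was not (0.16). Between P7 and P15, 4 of 8 fell (Tubb2b, Tubb5, Tuba1a and Tubb2a) and 0 rose, against 24.0% of probe sets called, 13.6% lower and 10.4% higher, and arrays did not overlap for 6 of 8 isotypes and 45.0% of probe sets. Between P15 and P21, Tubb2b alone was called, lower, against 17.7% of probe sets, 7.16% lower and 10.5% higher, and arrays did not overlap for 2 of 8 isotypes (Tubb2b and Tubb4a) and 32.7% of probe sets. Between P21 and P56, 6 fell and 0 rose, against 56.4% called, 34.3% lower and 22.1% higher, and arrays did not overlap for 7 of 8 isotypes and 54.7% of probe sets. The isotypes not called in that last step were Tubb4a and Tubb6. With array medians set to 0, 5 were lower and 2 were higher in this step (Tubb4a 0.39 and Tubb6 0.34), Tubb2a was not called (−0.15), and 69.1% of all calls were higher, against 39.3% as deposited. Immature neuron markers (10 of 10 measured) averaged between 12.16 and 12.23 on the P0 arrays, between 10.71 and 10.93 on those of P7, between 9.82 and 9.90 on those of P15, between 9.21 and 9.44 on those of P21 and between 8.62 and 8.73 on those of P56. The mean of this list fell beside Tubb2b at each age, but not every marker did. At P21 against P15, 7 of the 10 were called lower and 3 were not called. At P56 against P21, 6 were lower, 3 were higher and 1 was not called. The part of this list in the falls was not tested. Proliferating cell markers (9 of 10 measured) gave 8.43 to 8.68 at P7 and 8.56 to 8.67 at P0, then between 6.88 and 6.96 on the P15 arrays, between 6.34 and 6.43 on those of P21 and between 6.21 and 6.26 on those of P56. Granule cell progenitor markers (9 of 9) were at 9.03 to 9.11 at P7 and at 8.89 to 8.95 at P0, then between 7.80 and 7.91 on the P15 arrays, between 7.42 and 7.59 on those of P21 and between 7.35 and 7.45 on those of P56. The part of these 2 lists in the changes of Tubb5 and the other isotypes was not tested.

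**Figure D3:**
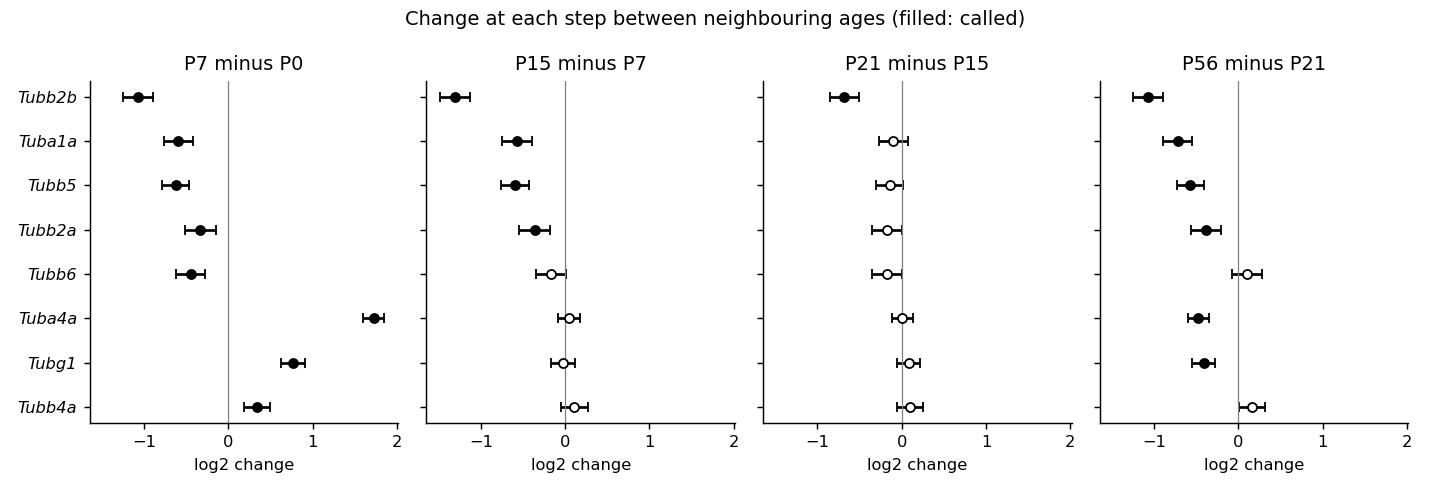
Log2 change (x axis) of each of the 8 tubulin isotypes (y axis) at each step between neighbouring ages, later age minus earlier age; bars are 95% intervals, filled points passed limma's test and open points did not. The step from P15 to P21 has 1 filled point, Tubb2b at −0.68.

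**Figure D4:**
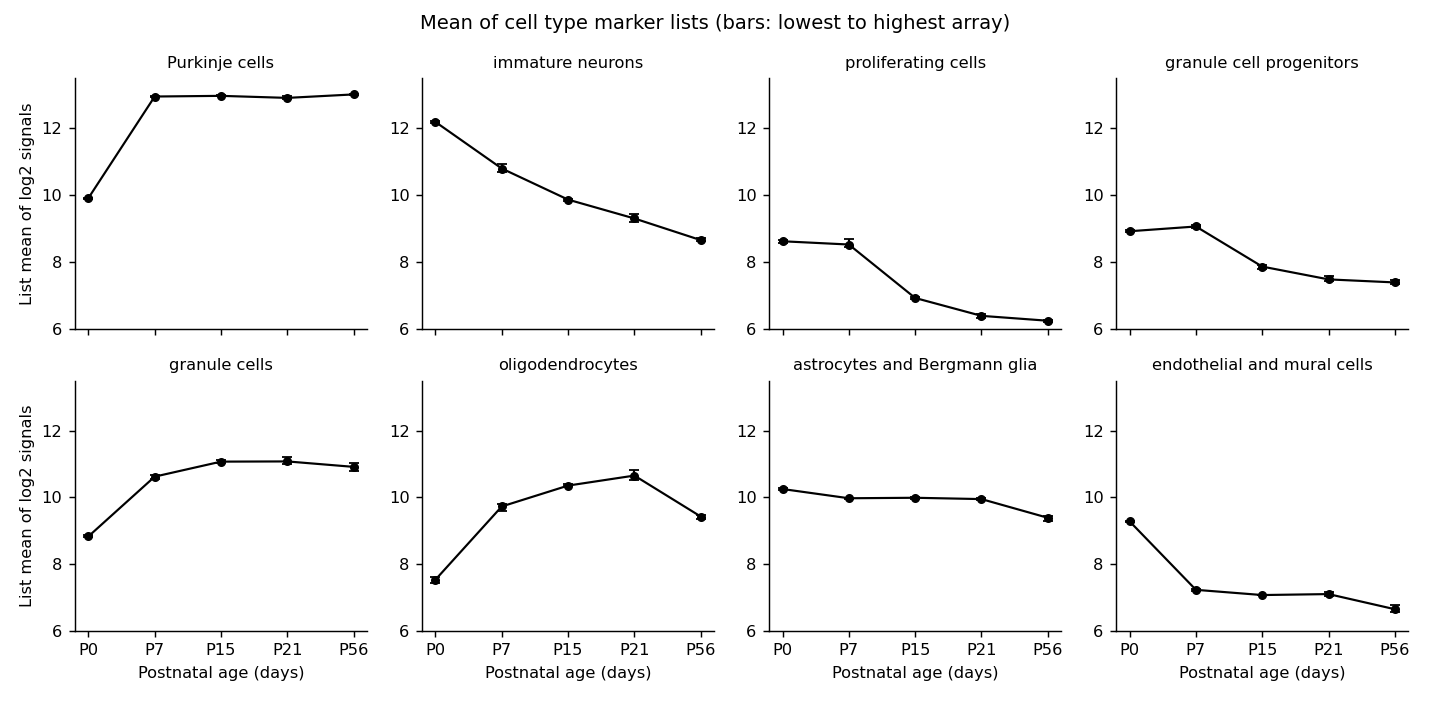
Mean of the log2 signals of 8 marker lists (y axis) at each postnatal age (x axis, not to scale in days); points are means of 3 arrays, and bars run from the lowest to the highest array. The immature neuron list declines at every age, the Purkinje cell list steps up between P0 and P7, and the oligodendrocyte list peaks at P21.

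Pairs of isotypes were compared by the change of one minus the change of the other, since the levels of 2 probe sets cannot be set against each other. The change of Tubb4a from P0 to P56 exceeded that of Tubb2b by 4.84 and that of Tubb5 by 2.64. Tubb2a exceeded Tubb2b by 2.88, and Tubb6 exceeded Tubb5 by 1.24. The change of Tuba1a minus that of Tuba4a was −3.29. Between P7 and P56, which leaves out the P0 arrays, the same differences were 3.43, 1.68, 2.13, 1.06 and −0.97. The SD of these per-array differences within an age was 0.036 to 0.20. In each of the 10 comparisons the 3 P56 arrays lay on one side of the 3 earlier arrays, and the exact two-sided permutation p was 0.1, also after adjustment over the 10, which is the smallest that 3 arrays against 3 can give. Each difference was larger than the SD between arrays. This permutation test cannot give a p under 0.05 with 3 arrays a group, and the pairs were chosen with earlier results known. It therefore decides nothing about these differences.

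Among tubulin genes outside the 9, 8 of 11 had a single-symbol probe set, and from P0 to P56 4 rose, 0 fell and 4 were not called (median 0.31 against 0.08 for all probe sets), where 40.1% of all probe sets were higher and 35.3% lower. Tuba8, a divergent alpha-tubulin, gave 7.49, 7.73 and 7.54 at P0, 12.98, 12.97 and 12.96 at P7, 13.10, 13.12 and 13.12 at P15, 13.04, 12.99 and 12.89 at P21, and 12.83, 12.86 and 12.81 at P56. The P0 arrays were far below all others. Tuba8 was 37.9-fold higher at P56 than at P0 (log2 change 5.24, SE 0.068, adjusted p 2.51e-19), beside a change of 5.17 for Pcp2. From P7 to P56 it changed by −0.14 (adjusted p 0.0869). The centriolar delta-tubulin Tubd1 rose by 1.39 and the epsilon-tubulin Tube1 by 0.41 from P0 to P56, and Tubal3, an alpha-tubulin-like gene, rose by 0.77 from a level that lay under the lower quartile on 14 of 15 arrays. Tubd1 was under it on 3 arrays, those of P0. From P7 to P56, Tubd1 changed by −0.12 (adjusted p 0.209) and Tube1 by −0.23 (adjusted p 0.0686), and neither was called. Over that span Tubal3 rose by 0.72 (adjusted p 2.34e-06). Tubg2, the second gamma-tubulin gene and the next gene to Tubg1 on chromosome 11, changed by −0.18 from P0 to P56 (adjusted p 0.0572), and from P7 to P56 it fell by 0.43 (adjusted p 2.89e-04), beside a fall of 0.35 for Tubg1. Tuba3a (0.21) and Tubb1, known from platelets (0.10), were not called from P0 to P56, and neither was Tuba3b (−0.14), which lay under the lower quartile on all 15 arrays. Tuba1c, Tubb3 and Tubb4b had no single-symbol probe set and are not analysed here.

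The proteins that fold tubulin moved in both directions. From P0 to P56, of 21 folding genes 12 were higher, 6 lower and 3 without a call (median 0.29), where 75.4% of all probe sets were called, 40.1% higher and 35.3% lower. The prefoldin subunits Pfdn1 and Pfdn6, which pass new tubulin chains to the chaperonin, rose by 1.93 (SE 0.062, adjusted p 1.27e-14) and 1.71 (SE 0.086). Tbce, a cofactor that assembles the heterodimer, averaged 8.91 at P56 and 10.67 at P0, and fell by 1.76 (SE 0.067, adjusted p 1.24e-13), and the chaperonin subunit Cct4 fell by 0.92. From P7 to P56, 9 rose and 9 fell, where 25.4% of all probe sets were higher and 34.2% lower. Over that span Pfdn1 changed by 1.22, Pfdn6 by 1.18, Tbce by −0.65 and Cct4 by −0.71.

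Of 18 measured genes of the gamma-tubulin ring complex and of augmin, which branches microtubules from older ones, 6 rose, 9 fell and 3 were not called from P0 to P56 (median −0.19), against 40.1% of all probe sets higher and 35.3% lower. From P7 to P56, 2 rose, 9 fell and 7 were not called, against 25.4% of all probe sets higher and 34.2% lower. Tubgcp4, a subunit of the ring, and Pcnt, which anchors rings at the centrosome, each rose by 1.08. From P7 to P56 Tubgcp4 fell by 0.69 (adjusted p 3.29e-07), whereas Pcnt rose by 0.29 (adjusted p 0.00199). The augmin subunit Haus7 fell by 1.87 (SE 0.12) from P0 to P56, and its change from P7 to P56 was −1.56. Akap9, a scaffold of the Golgi and the centrosome, fell by 1.51 (SE 0.083) from P0 to P56, and its change from P7 to P56 was 0.083 (adjusted p 0.407).

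Microtubule-associated proteins fell in 19 of 27 cases from P0 to P56 and rose in 6, with 2 without a call (median −0.74 against 0.08), where 35.3% of all probe sets were lower and 40.1% higher. From P7 to P56, 19 of the 27 fell and 3 rose, where 34.2% of all probe sets were lower and 25.4% higher. Dcx, which stabilises microtubules of immature neurons, averaged 6.24 at P56 and 12.52 at P0, a change of −6.29 (SE 0.079), and Map2, which marks dendrites, changed by −2.80 (SE 0.071). Map7d1 and Map7, known to recruit kinesin-1 to microtubules, rose by 1.01 and 0.82 from P0 to P56. From P7 to P56 Map7d1 rose by 0.52 (adjusted p 3.14e-06), and the change of Map7 was 0.18 (adjusted p 0.0862, not called). Dcx and Map2 changed by −4.45 and −0.84 from P7 to P56.

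Among 19 measured tubulin-modifying enzymes, 7 rose, 9 fell and 3 were not called from P0 to P56 (median −0.03), near the 75.4% of all probe sets that were called. From P7 to P56, 4 rose, 9 fell and 6 were not called, where 25.4% of all probe sets were higher and 34.2% lower. Ttll7, which adds glutamate chains to beta-tubulin tails, averaged 12.28 at P56 and 8.17 at P0, and rose by 4.11 (SE 0.094, adjusted p 1.88e-16), and its other probe set rose by 4.20. Ttll5, another glutamylase, averaged 13.11 at P56 and 9.66 at P0, and rose by 3.45 (SE 0.065). From P7 to P56 both still rose, by 0.87 (adjusted p 4.03e-07) and 0.55 (adjusted p 1.28e-06). Vash2, which removes the last tyrosine of alpha-tubulin, averaged 6.53 at P56 and 9.86 at P0, and fell by 3.33 (SE 0.094). The change of Vash2 from P7 to P56 was −1.91. The deacetylase Hdac6 fell by 1.87 from P0 to P56 and by 1.51 from P7 to P56. Of 6 measured severing enzymes, 3 rose and 3 fell (median −0.18), against 40.1% and 35.3% of all probe sets, with the katanin genes Katnal1 (1.34) and Katna1 (0.35) higher and Spast (−1.34) and Fign (−0.85) lower at P56 than at P0. From P7 to P56, 3 rose and 3 fell, against 25.4% and 34.2% of all probe sets. Over that span Katnal1 changed by 0.58, Katna1 by 0.77, Spast by −0.57 and Fign by −0.61.

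**Figure D5:**
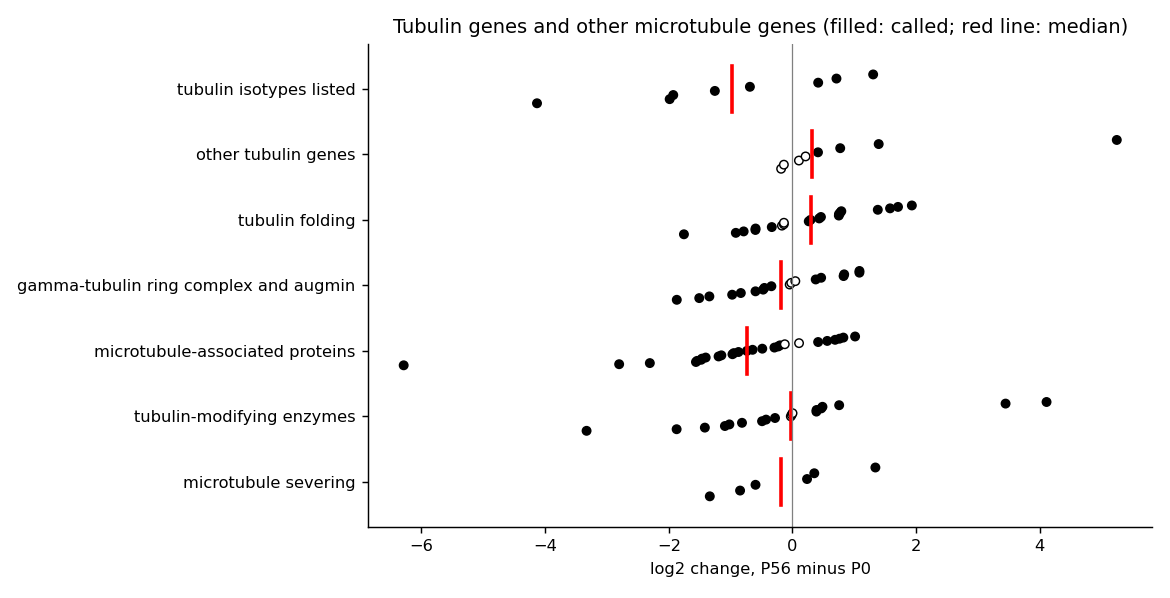
Log2 change of P56 minus P0 (x axis) for the 8 measured tubulin isotypes and for the measured genes of 6 other lists (y axis); each point is a gene, filled where it passed limma's test, and red lines are list medians. The isotypes span −4.13 to 1.30, and Tuba8 stands at 5.24 among the other tubulin genes.

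Genes with the most similar course were sought among 6653 genes whose age means spanned at least 1 log2 unit, by Pearson's r over the 15 arrays, which share ages and so are no independent points. For Tubb2b they were Npnt (0.996), Slc35f2 (0.993) and Ddah1 (0.992). Ddah1 was also among those of Tuba1a (0.992), with Dock11 (0.993) and Fkbp1b (0.992), and of Tubb2a (0.981), with Macroh2a2 (0.986) and Aldh1l2 (0.979). Ddah1 itself averaged 9.68 at P56 and 12.49 at P0. For Tubb5 they were Pcyt1b (0.989), Car11 (0.987) and Dpysl3 (0.989), which is also on the immature neuron list. Tuba4a was closest to Ciao1 (0.997), Ubash3b (0.996) and Ppm1j (0.996), and Tubg1 to Pxmp4 (0.988), Mrpl4 (0.988) and Tubgcp4 (0.987). Tubb4a was closest to Pigg (0.982), Wbp2 (0.965) and Mctp1 (0.965), and Tubb6 to Cyp39a1 (0.965), Fzd2 (0.963) and Lrrc3 (0.961). Among the isotypes, Tuba1a, Tubb2a, Tubb2b and Tubb5 correlated with each other at 0.986 to 0.993, and Tuba4a with Tubg1 at 0.963.

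Some tubulin isotypes of the same class have very similar coding sequences, and RefSeq lists tubulin pseudogenes, among them Tubb2a-ps1 and Tubb2a-ps2. The probe sequences were not used here, so how far a probe set also reads a paralog, such as the unmeasured Tuba1b beside Tuba1a, was not tested. Signals of different isotypes are not compared as levels for the same reason.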

How the data were processed

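The authors deposited 1 log2 value per probe set and array, and the submitters' processing notes name Affymetrix Power Tools. Neither version nor algorithm is given in the sources used here, and base 2 was inferred from the range. Values were used as they stand, no probe set was removed and 0 columns lay outside the 15 arrays. Gene symbols came from the platform annotation of 2016, and the probe set with the highest mean stood for a gene.

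Groups came from the titles. Ages were compared in limma 3.58.1 (R 4.3.3) with a mean per age, no covariate and a shared spread (10 residual and 6.5 prior degrees of freedom), two-sided, with Benjamini-Hochberg adjustment over all 22092 probe sets in each contrast and a threshold of 0.05. SE is that of the fit. No label ties the 3 arrays of an age to separate pools of animals, so p-values measure the spread between these arrays, which may be technical. No batch is labelled, so batch and age cannot be told apart. The number of arrays limits the precision.

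The members, gene lists, pairs and naming rules (all members, all other tubulin genes, the 2 largest called rises and falls of each other pathway list, the 3 most similar genes per member) were chosen with earlier results of these data known. Some genes may not be reported here. The fit was tested on simulated data. The labels do not say whether arrays with the same replicate number belong together. In their deviations from the age means, 5 of 30 same-numbered pairs correlated above 0.1, and 10 of 60 others. The highest correlations were 0.453 and 0.238. Such a count cannot show that arrays are unpaired, and the main fit did not pair them. Figures were drawn with matplotlib 3.10.9.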

Additional observations from a re-analysis of the deposited data

How the results depend on the processing

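All 8 isotypes kept direction and call for P56 against P0, with the replicate block, weighted arrays, the trended and robust prior, quantile normalization, medians set to 0, the dimmest probe sets removed and each array left out, except that Tubb6 was removed with the dimmest 50% of probe sets. Averaging a gene's probe sets was not run, since each isotype has 1. With the replicate number as a block, counts of calls differed by less than 1.5 times (16619 probe sets against 16647 for P56 against P0), and no call of an isotype changed. The count of isotypes higher at P56 than at P21, 0 as deposited, was 1 with quantile normalization (Tubb6), 2 with array medians set to 0 (Tubb4a and Tubb6), 1 with the trended and robust prior, 1 without the dimmest probe sets, and 0 to 1 with an array left out. Without the dimmest 50% of probe sets, where fewer are tested, 9690 probe sets were called for P56 against P0, against 16647, 8516 for P56 against P7, against 13167, and 10830 between any ages, against 18018.

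Signs turned for 1 called change, Tubb6 at P56 against P7, which was 0.026 with medians set to 0 (−0.24), and for changes that were not called. Tuba4a at P15 against P7 was −0.0026 with quantile normalization (0.05 as deposited). With medians set to 0, Tubg1 at P15 against P7 was 0.048 (−0.020) and Tuba4a at P21 against P15 −0.030 (0.0089). With arrays left out, Tubg1 at P15 against P7 ranged from −0.048 to 0.022 (without P15 replicate 3), and Tuba4a at P21 against P15 from −0.0085 (without P15 replicate 3; −0.0043 without P21 replicate 3) to 0.029. The cause was not tested. With medians set to 0, Tubb2a at P56 against P21 was no longer called (−0.15). Medians set to 0 also moved the share of higher calls to 62.2% from 43.3% (P15 against P7), 45.9% from 59.5% (P21 against P15), 69.1% from 39.3% (P56 against P21) and 71.9% from 42.5% (P56 against P7). The arrays come with no background level, which limits what can be said of Tubb6.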
